A study of Mus musculus with 367 samples.

Results

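Cells with high Rgs5 were picked out of single cells from healing mouse skin. They were split by their level of Acta2, the gene of smooth muscle alpha-actin. They are called mural cells here, after the pericytes and smooth muscle cells that wrap small vessels. The paper that reported these data classed Rgs5-expressing wound cells as fibroblasts low in Pdgfra. Its staining placed the majority of RGS5-positive cells outside blood vessels. The position of the cells sequenced here is not known. Among the 367 cells of the series, 60 met the rule for mural cells. That rule asked for Rgs5 of at least 500 FPKM, Tyrobp below 50 FPKM, at most 15% of summed FPKM on mitochondrial genes and at least 2000 genes above 0. FPKM is the number of fragments of a gene, divided by its length and by all fragments of that cell. Of the 60 cells, 27 held at least 600 FPKM of Acta2 and are called Acta2-high, and the remaining 33 are called Acta2-low. The members were thus chosen by their values of Rgs5, Acta2, Tyrobp, mitochondrial share and gene number, which are given as a description only.

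All cells came from Sm22-Cre;tdTomato mice on a mixed background, aged 3 to 8 weeks, with a square excisional wound of 1.5 cm a side on the back. Sm22-Cre expresses Cre from the Tagln promoter, so that tdTomato labels cells in which this promoter was or had been active, and only viable tdTomato-high cells were loaded on the C1 microfluidic chip. Neither a wild-type nor an unwounded group was part of these captures. Wound tissue was taken at post-wounding day (PWD) 12, with 3 captures, and at PWD 15 and 21, with 2 captures each, and wounds of 2 to 3 animals were combined for each day. Nothing in the sources used here says whether the captures of a day came from different mice, so the spread between captures may be technical in part.

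Mural cells hold on to the outside of capillaries and arterioles and regulate their width and stability. Pericytes on capillaries carry few contractile filaments, whereas smooth muscle cells of arterioles assemble Acta2 with gamma-actin, tropomyosin, myosin light chains and the actin-binding protein transgelin (Tagln) into a contractile apparatus. Rgs5 encodes a regulator of G protein signaling known as a mural marker. In skin wounds, Acta2 also marks myofibroblasts, the contractile fibroblasts that close the wound. Many genes of the contractile apparatus are activated by serum response factor (SRF), which binds the CArG box.

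Mural markers that the rule did not use were detected in a larger share of mural cells than of the matrix fibroblasts defined next, to differing degrees. Part of the mural cells also carried much fibroblast RNA, as given below. Notch3, a receptor that maintains mural cells, had a value above 0 in 55 of the 60 mural cells and in 16 of 209 matrix fibroblasts, the cells of the series, under the same quality limits, with Rgs5 below 500 FPKM, Tyrobp below 50 FPKM and Col1a1 of at least 1000 FPKM. Kcnj8, a potassium channel subunit of pericytes, was detected in 44 mural cells and 6 matrix fibroblasts, and Higd1b in 50 and 13. Mcam was found in 52 and 36, and Cox4i2, a subunit of cytochrome oxidase, in 42 and 11. Pdgfrb separated the cells less, with 59 mural cells and 192 matrix fibroblasts, and Cspg4 was found in 22 and 17. Markers of mature smooth muscle were less common in the mural cells. Myh11, the smooth muscle myosin heavy chain, was detected in 44 with a median of 3.94 FPKM, Lmod1 in 23 and Cnn1, or calponin, in 5. The endothelial markers Cdh5 and Cldn5, the leukocyte markers Ptprc and Fcer1g and the muscle markers Ckm and Mylpf were listed at 0 in all 60 cells, and 0 of 60 allows a share of up to 5%.

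The fibroblast gene Col1a1, by contrast, was above 0 in all 60 mural cells, with a median of 575.93 FPKM, and it reached 1000 FPKM in 19 of them. Dcn was detected in 57 and Lum in 50, while Pdgfra, a receptor of fibroblasts, was detected in 17 against 179 of the 209 matrix fibroblasts. No cells of the series shared identical values. For their own analysis the authors kept only cells seen singly under the microscope. Whether the deposited cells are limited to these is not stated in the sources used here. In this set 1 Acta2-low cell held RNA of both Y-linked genes and Xist at 10 FPKM or more, and results were also computed without it. A further 2 cells past the Rgs5 limit were left out for Tyrobp, the lower of them at 425.38 FPKM, and 7 for their mitochondrial share or gene number.

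The Rgs5 limit fell into an empty stretch of the values. The lowest mural cells held 609.7 and 677.68 FPKM, and the highest cells left out held 419.6 and 200.63 FPKM. The cell at 609.7 FPKM also held 6054.99 FPKM of Col1a1, so this gap does not by itself separate kinds of cell. Over the 60 cells together, the Acta2 limit did not mark such a gap. Acta2 (GRCm38 chr19:34241090-34255590, minus strand) of the highest Acta2-low cells was 584.44 and 551.22 FPKM, and that of the lowest Acta2-high cells was 627.11 and 705.77 FPKM. The split therefore divides a continuous range of the pooled cells. Within a capture the step across the limit was wider. It ran from 584.44 to 1374.39 FPKM in PWD12 capture 1 and from 512.52 to 1382.21 FPKM in PWD12 capture 2. In PWD12 capture 3 it ran from 390.89 to 705.77 FPKM, and in PWD15 capture 1 from 291.28 to 627.11 FPKM.

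Acta2-high cells were found at PWD 12 and 15. They made up 3 of 9 mural cells in PWD12 capture 1 (33.3%, exact 95% interval 7.49 to 70.1%), 3 of 7 in PWD12 capture 2 (42.9%, 9.90 to 81.6%), 11 of 16 in PWD12 capture 3 (68.8%, 41.3 to 89.0%) and 10 of 18 in PWD15 capture 1 (55.6%, 30.8 to 78.5%). These intervals overlap widely, and they cover counting error only. PWD21 capture 1 held 9 mural cells, 0 of them Acta2-high, which allows a share of up to 33.3%. In 4 of these 9 cells Col1a1 was at least 10000 FPKM, beside a median of 7020 FPKM in matrix fibroblasts. The share and the medians of this capture include them. PWD15 capture 2 held 1 mural cell, which was Acta2-low, and PWD21 capture 2 held 0. Median Acta2 of the mural cells was 551 FPKM, 513 FPKM and 778 FPKM in the PWD12 captures, 856 FPKM in PWD15 capture 1 and 62.7 FPKM in PWD21 capture 1. Median Rgs5 followed with 6817, 8549, 7951 and 7134 FPKM in the first 4 of these, and 2433 FPKM at PWD 21. With a single PWD21 capture holding mural cells, day and capture cannot be told apart there.

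**Figure D1:**
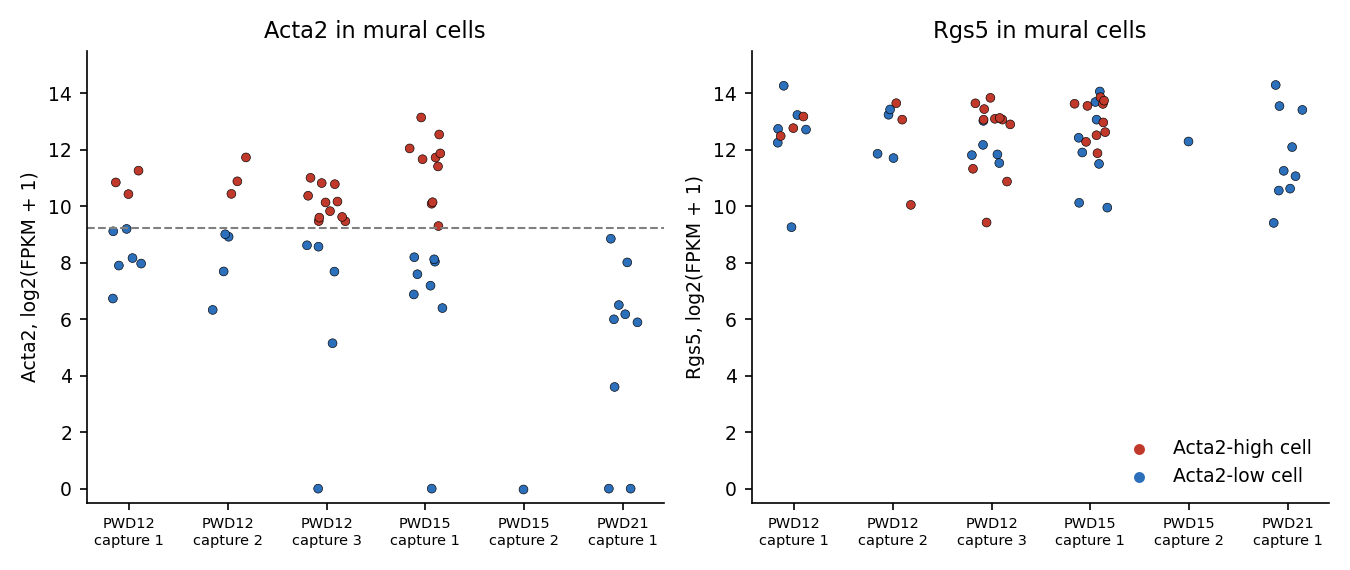
Acta2 (left) and Rgs5 (right) as log2(FPKM + 1) in each of the 60 mural cells, by capture, with Acta2-high cells in red, Acta2-low cells in blue and a dashed line at the limit of 600 FPKM. Acta2 runs through the limit without a wide gap over the 60 cells together, with wider steps inside single captures. The 9 cells of PWD21 capture 1 lie below the limit, and Rgs5 overlaps between the sides.

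In the compared captures the median Acta2 was 1755 FPKM on the high and 237 FPKM on the low side, and that of Rgs5 was 8549 and 4851 FPKM. Comparisons between the sides used the 4 captures with at least 3 cells on each, which are the 3 captures of PWD 12 and PWD15 capture 1, with 27 Acta2-high and 23 Acta2-low cells. Fragments per cell were estimated from the steps between FPKM values. The medians were 1209957 fragments in Acta2-high and 1068852 in Acta2-low cells, within a range of 54726 to 6784123. The number of genes above 0 had a median of 5111 in Acta2-high cells (2026 to 9701) and 5151 in Acta2-low cells (2859 to 10035). Averaged over captures, the difference in genes was -347 ± 808 (SD over 4 captures), less than its spread, and that in mitochondrial share was -1.16 ± 1.12 percentage points.

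A mean of log2(FPKM + 1) over the cells of each side and capture was compared between sides in limma, blocked by capture. This scale understates changes of low genes. Of 6521 genes tested, 0 passed an adjusted p of 0.05 (0% of genes), and the smallest adjusted p in limma was 0.677. At an unadjusted p below 0.05, 152 genes were higher in Acta2-high cells (2.33%) and 182 were lower (2.79%). In all 4 captures, 355 genes were higher (5.44%) and 530 lower (8.13%). The median difference over all genes was -0.07, and it was 0.22, -0.49 and 0.15 in the PWD12 captures and -0.19 in PWD15 capture 1. None of the genes named for this comparison passed it. The values of named genes are therefore differences with their error, to be read against these shares.

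Genes of the contractile apparatus lay higher in the Acta2-high cells as a group. Of 28 genes on the list, 20 were expressed highly enough to be tested, and 18 of these had a positive difference, beside 3036 of all 6521 genes tested. The median difference of the 20 was 0.97 on the log2 scale, against -0.07 over all genes. It was positive in each capture, with 0.59, 0.74 and 0.83 at PWD 12 and 1.12 at PWD 15. At an unadjusted p below 0.05, 6 of the 20 were higher and 0 lower, beside 2.33% and 2.79% of all genes. In all 4 captures 9 were higher, beside 5.44% of all genes. The list was chosen with earlier results of these data known, and its median over captures was not tested.

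The upstream sequences of 4 genes are shown because the contractile list lay higher as a group and SRF, named above, binds the CArG box. Of these genes only Myl9 is on that list. Acta2 chose the cells, and Actg1 is not on the list. Acta2, Myl9 and Actg1 each hold a box, whereas the list members Tpm1 and Des held none and are not printed. The display is thus not a sample of the list. Any part of SRF in the differences was not tested. The sequences are the 250 bases before the transcription start in the RefSeq annotation of GRCm38.p6. They are written along the strand of the gene, with boxes in capitals. A box was searched as CCNNNNNNGG with each N being A or T, or with at most 1 G or C among the 6 inner bases. The motif is its own reverse complement, so both strands are covered, and no other motif was searched. Rgs5 is shown as the mural gene that chose the cells.
Acta2, chr19:34255374-34255623, minus strand: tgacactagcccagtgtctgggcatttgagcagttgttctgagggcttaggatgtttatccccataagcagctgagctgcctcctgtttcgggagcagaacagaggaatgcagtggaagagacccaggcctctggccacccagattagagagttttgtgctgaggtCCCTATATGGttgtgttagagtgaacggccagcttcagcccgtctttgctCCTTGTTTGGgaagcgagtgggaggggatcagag
Myl9, chr2:156775214-156775463, plus strand: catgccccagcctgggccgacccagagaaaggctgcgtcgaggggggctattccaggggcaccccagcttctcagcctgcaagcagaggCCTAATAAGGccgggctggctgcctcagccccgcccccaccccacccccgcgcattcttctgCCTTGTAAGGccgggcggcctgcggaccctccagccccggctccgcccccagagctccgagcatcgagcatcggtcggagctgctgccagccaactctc
Actg1, chr11:120348496-120348745, minus strand: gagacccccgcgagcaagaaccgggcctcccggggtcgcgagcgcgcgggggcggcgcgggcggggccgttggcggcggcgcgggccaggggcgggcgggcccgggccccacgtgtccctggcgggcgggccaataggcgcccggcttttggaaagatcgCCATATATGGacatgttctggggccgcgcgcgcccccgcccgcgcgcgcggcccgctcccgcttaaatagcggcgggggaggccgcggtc
Rgs5, chr1:169655251-169655500, plus strand: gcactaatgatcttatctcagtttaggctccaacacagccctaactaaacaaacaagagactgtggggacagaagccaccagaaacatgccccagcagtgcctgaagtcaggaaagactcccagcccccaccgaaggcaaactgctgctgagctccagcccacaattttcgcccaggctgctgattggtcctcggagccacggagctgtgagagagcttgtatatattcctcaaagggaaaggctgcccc

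Acta2 held a pair of boxes with 1 G or C each, CCCTATATGG at positions -84 to -75 and CCTTGTTTGG at -34 to -25, counted back from the base before the start. Myl9 held an exact box, CCTAATAAGG at -161 to -152, and CCTTGTAAGG with 1 inner G at -99 to -90. Actg1 held the exact box CCATATATGG at -90 to -81. No match was found in the windows of Rgs5, Kcnj8, Tpm1, Des, Cald1 or Flna, which says only that these letters are not there. An exact box was present in 482 of 32851 RefSeq promoters (1.47%), and one that was exact or had 1 G or C in 2823 (8.59%). Of 29 promoters of the 24 contractile genes found in the table, 3 held an exact box (10.3%), in Myl9, Vcl and Myl6. The same 3 held a box that was exact or had 1 G or C (10.3%), beside the 8.59% of all promoters. Of 20 promoters of 15 pericyte genes, 0 held an exact box and 1 held the near form (5%). Tagln, Actg2 and Actb had no entry.

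Tagln, which encodes transgelin and whose promoter drives the Cre of these mice, had a median of 1037.5 FPKM in Acta2-high and 223.5 FPKM in Acta2-low cells (GRCm38 chr9:45929619-45936058, minus strand). In PWD12 capture 1 the Acta2-high cells ranged from 762.14 to 1007.74 FPKM with a median of 884.83, and the Acta2-low cells from 0.27 to 828.67 with a median of 178.785. In PWD12 capture 2 the medians were 1428.22 and 57.77 FPKM, and in PWD15 capture 1 they were 1296.76 and 118.72 FPKM. PWD12 capture 3 stood apart, with medians of 890.33 FPKM in Acta2-high and 910.45 FPKM in Acta2-low cells. The fitted difference was 3.45 (SE 0.71, unadjusted p 0.000559, limma adjusted p 0.894). By capture it was 2.99, 5.18, 0.75 and 4.88. From the log2 of the mean FPKM over cells it was 1.48. The cells overlapped, since 3 of 23 Acta2-low cells were above the Acta2-high median and 3 of 27 Acta2-high cells were below the Acta2-low median. Of the 50-base windows of Tagln transcripts, 58.3% also occur in other genes, mainly in Gm48529, so reads from it may have been split.

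Myl9, the regulatory light chain of smooth muscle myosin, had a median of 918 FPKM in Acta2-high and 311 FPKM in Acta2-low cells (chr2:156775420-156781658, plus strand). Its difference was 2.72 (SE 0.67), with 0.54, 3.88, 1.92 and 4.53 by capture, and 1.43 from the log2 of the mean FPKM. The separation was least in PWD12 capture 1, where the medians were 728.5 and 529.875 FPKM, and widest in PWD15 capture 1, with 1503.6 and 27.74 FPKM. None of the 50-base windows of Myl9 was shared with another gene (0%).

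Tpm1, a tropomyosin that lies along the actin filament, was detected in each cell of both sides, with medians of 512 and 171 FPKM (chr9:67022590-67049406, minus strand). The medians of Acta2-high cells were 455.31, 829.45 and 397.22 FPKM in the PWD12 captures and 589.585 FPKM in PWD15 capture 1. Those of Acta2-low cells were 278.06, 223.545, 150.3 and 65.65 FPKM in the same order. The order of the medians was the same in all 4 captures, and the difference was 2.27 (SE 0.58).

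Actg2, the enteric smooth muscle gamma-actin, was present in fewer cells. It was detected in 13 of 27 Acta2-high and 7 of 23 Acta2-low cells (chr6:83512905-83536265, minus strand). In PWD12 capture 1 all 3 Acta2-high cells held it, at 331.19 to 502.49 FPKM, against at most 91.15 FPKM in the 6 Acta2-low cells, so the sides did not overlap. In PWD15 capture 1 it was above 0 in 4 of 10 Acta2-high and 0 of 8 Acta2-low cells, where 0 of 8 allows a share of up to 37.5%. The difference was 3.75 (SE 0.93), with 6.14, 4.97, 0.91 and 2.98 by capture. It ran from 1.95 with at least 4 cells a side to 5.95 from the log2 of the mean FPKM.

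Des, the intermediate filament protein desmin, was higher by 2.19 (SE 0.78, unadjusted p 0.0171), with medians of 36.04 and 0.19 FPKM. Myl6, the essential light chain, was higher by 1.19 (SE 0.45) from medians of 1634.4 and 1277.64 FPKM. Nexn, Flna and Mustn1 were higher in all 4 captures by 1.47 (SE 0.72), 1.29 (SE 0.67) and 1.15 (SE 0.77) without passing an unadjusted p of 0.05. The following members were picked with their values known. Myh11 was higher by 0.71 (SE 0.70), Lmod1 by 0.69 (SE 0.66), Cald1, or caldesmon, by 0.33 (SE 0.40), Tpm2 by 0.18 (SE 0.79) and Mylk, the myosin light chain kinase, by 0.11 (SE 0.64), each by no more than about its error. Cnn1 was above 0 in 2 of 27 and 2 of 23 cells and too low to be tested.

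Counted per cell, Acta2-high cells expressed a median of 17 of the 28 contractile genes (7 to 23), and Acta2-low cells 15 (8 to 22). Most members were thus detected on both sides. The summed FPKM of the 28 genes had medians of 7113 and 4394. By capture the medians were 6106, 7582, 5348 and 8092 FPKM for Acta2-high and 4684, 4200, 4813 and 4177 FPKM for Acta2-low cells.

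**Figure D2:**
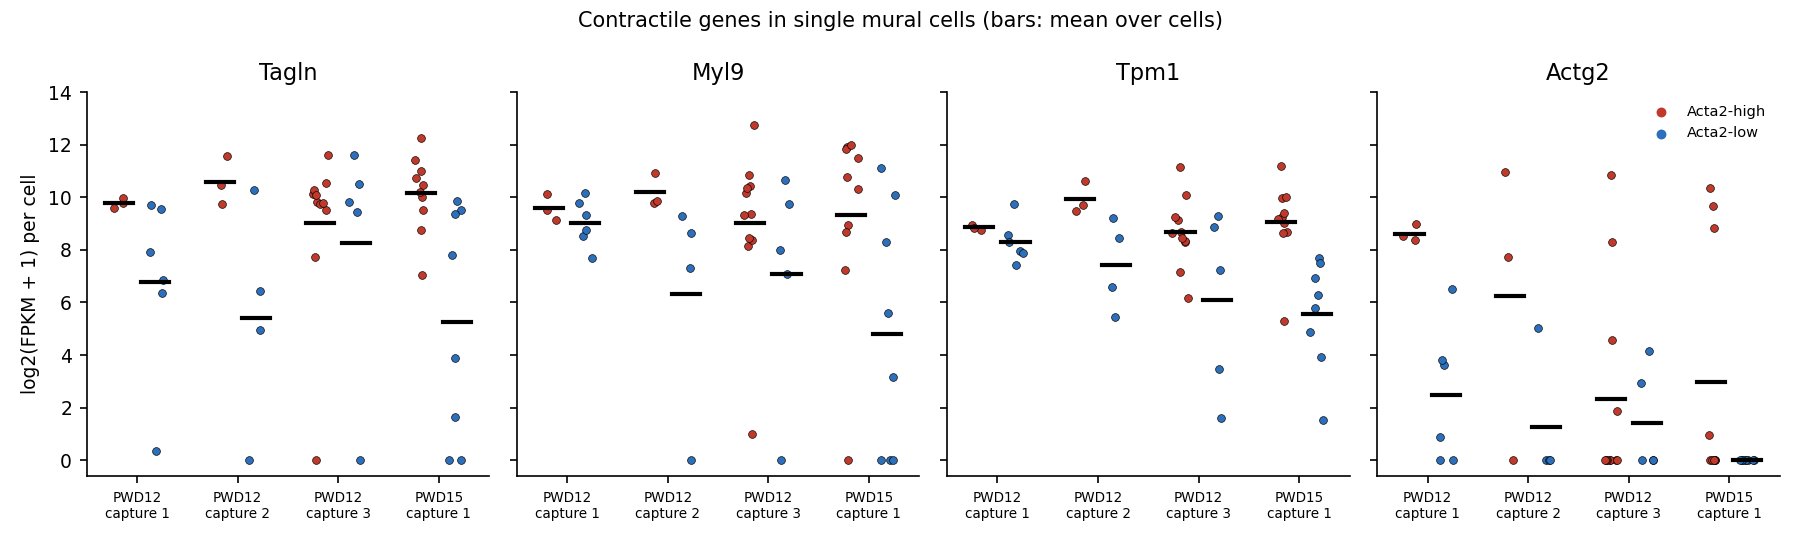
Tagln, Myl9, Tpm1 and Actg2 as log2(FPKM + 1) in each cell of the 4 compared captures, with Acta2-high cells in red, Acta2-low cells in blue and bars at the mean over the cells of a side. Each mean is higher on the Acta2-high side, the cells overlap except for Myl9 and Tpm1 in PWD12 capture 2 and Actg2 in PWD12 capture 1, and the means for Tagln are closest in PWD12 capture 3, where they differ by 0.75.

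The cytoplasmic actins, which are not on the list, also lay higher. Actg1, cytoplasmic gamma-actin, had the smallest p of any gene that was higher, at 2.54 (SE 0.46, unadjusted p 0.000208, limma adjusted p 0.677), with 1.67, 1.92, 2.72 and 3.83 by capture (chr11:120345690-120348542, minus strand). Its mean log2 level was 10.33 ± 0.63 in Acta2-high and 7.80 ± 1.47 in Acta2-low cells (SD, n = 4 captures). The medians within PWD12 capture 3 went the other way, at 839.44 and 1035.03 FPKM. Its difference was 1.42 from the log2 of the mean FPKM and 4.02 among cells with Col1a1 below 1000 FPKM. Actb, cytoplasmic beta-actin, was higher by 0.72 (SE 0.17), with 0.51, 0.92, 0.80 and 0.66 by capture, and the lowest of the 50 cells held 961.2 FPKM. Only 0.326% of the windows of Acta2 occur in another gene, Actg1 among them, whereas 37.4% of those of Actg1 occur elsewhere, mainly in pseudogenes such as Gm12715.

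Across the 50 cells, after the mean of each capture was removed, Acta2 had a Spearman coefficient of 0.595 with Tpm1, 0.585 with Tagln, 0.534 with Actb, 0.488 with Myl9, 0.425 with Actg2 and 0.403 with Actg1. These are descriptions over cells that share captures, a depth range and a scaling to one total. Inside the sides the coefficients were smaller. For Tagln they were 0.32 among Acta2-high and 0.24 among Acta2-low cells, for Tpm1 -0.059 and 0.28, and for Actg1 -0.085 and -0.019. Abcc9, by contrast, had a coefficient of -0.29 over the 50 cells, -0.35 among Acta2-high and 0.18 among Acta2-low cells, and was singled out after its values were seen. Acta2 was listed at 0 in 2 Acta2-low cells of the compared captures, and both held Tagln, at 688 and 723 FPKM. The former also held 252.29 FPKM of Myl9 and 462.56 FPKM of Tpm1, whereas the latter held 28.54 FPKM of Tpm1 and was listed at 0 for Myl9.

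**Figure D3:**
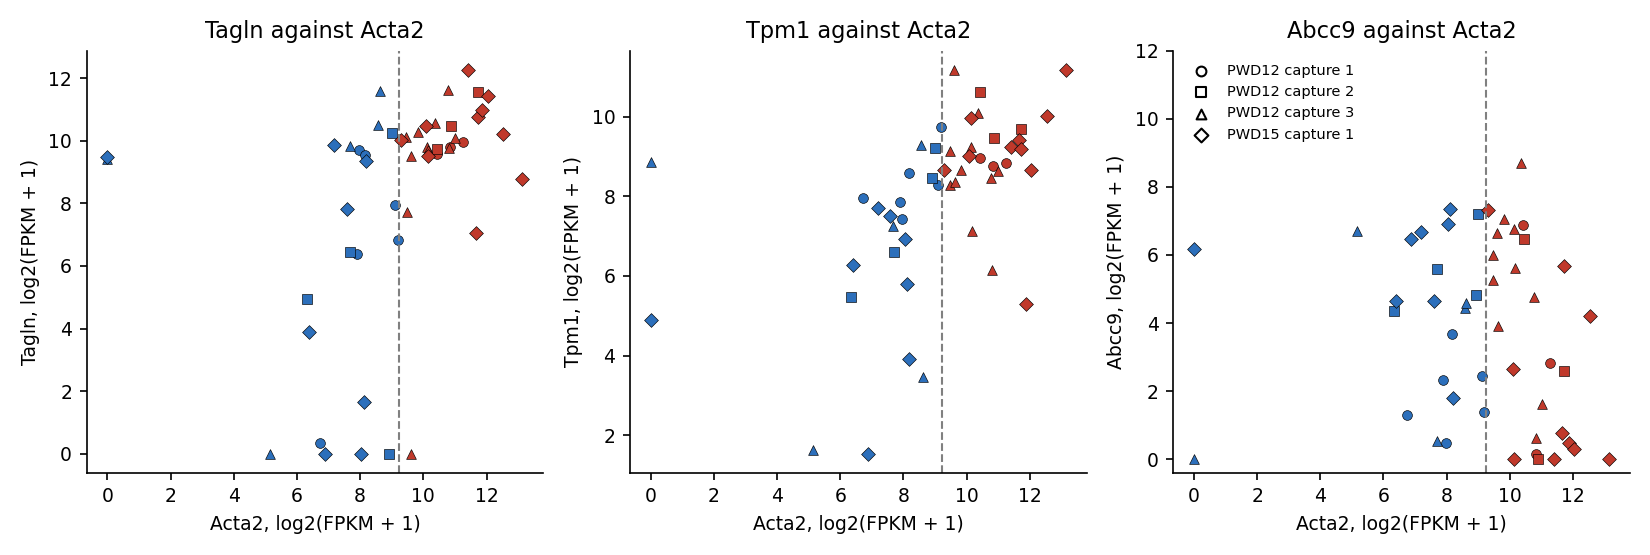
Tagln, Tpm1 and Abcc9 against Acta2, all as log2(FPKM + 1), in the 50 mural cells of the 4 compared captures, with Acta2-high cells in red, Acta2-low cells in blue, symbols for captures and a dashed line at 600 FPKM. Tagln and Tpm1 of most Acta2-high cells lie near the top of their range, with coefficients of 0.585 and 0.595 over cells, while Abcc9 spreads over its whole range on both sides.

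Pericyte genes showed no common direction. Of 24 genes on the list, 22 were tested, with a median difference of 0.04 and 12 positive and 10 negative values. At an unadjusted p below 0.05, 0 were higher and 0 lower, and 0 had one sign in all 4 captures. The medians of the captures were 1.35, -1.16, 0.43 and -0.18, a wider spread than for the contractile list. Cox4i2 came nearest, with a difference of 2.25 (SE 1.14) that was made of 4.53, -0.76, 5.98 and -0.76. Ndufa4l2, a mitochondrial protein of hypoxic and mural cells, differed by 1.06 (SE 0.58), Steap4, a metalloreductase, by -1.56 (SE 0.92) and Anpep, an aminopeptidase, by -0.80 (SE 0.66). Of the subunits of the pericyte potassium channel, Kcnj8 differed by 0.74 (SE 0.89) and Abcc9 by -0.66 (SE 1.01), the latter with 1.35, -2.47, 1.93 and -3.45 by capture. Notch3 and Pdgfrb differed by 0.54 (SE 0.75) and -0.35 (SE 0.68). Rgs5, which chose the cells, had a mean log2 level of 12.66 in Acta2-high and 12.28 in Acta2-low cells.

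**Figure D4:**
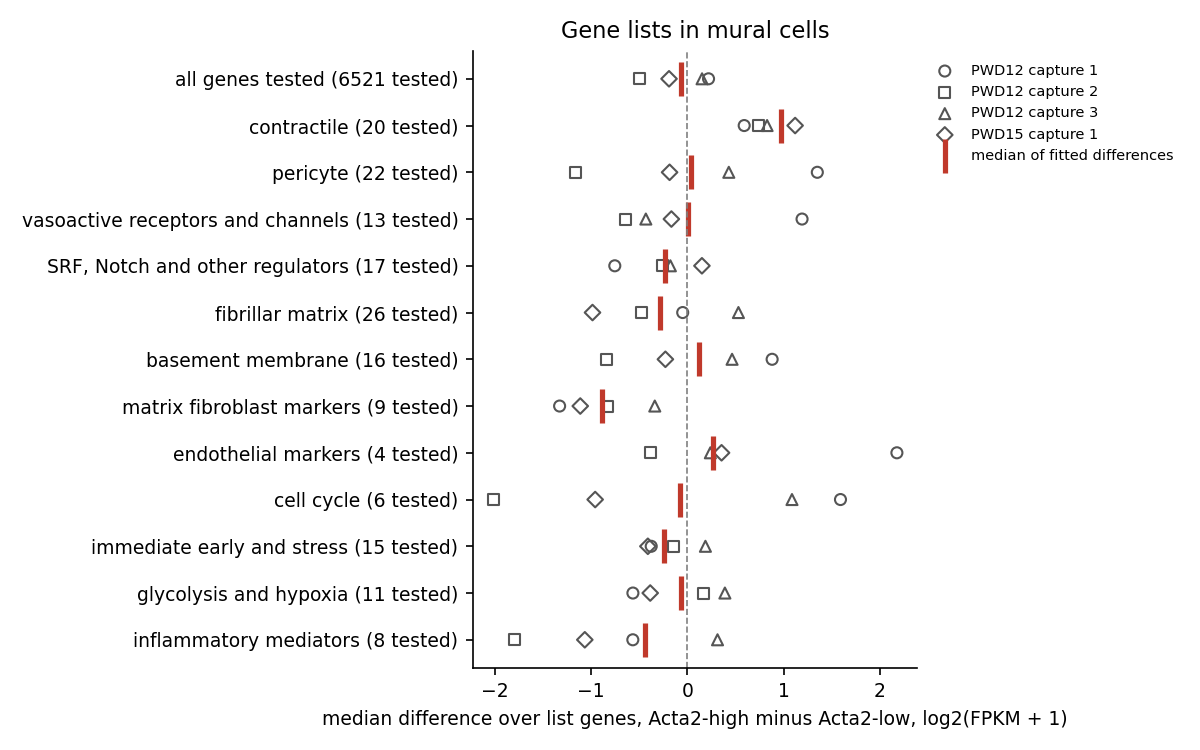
Median difference between Acta2-high and Acta2-low mural cells in log2(FPKM + 1) over the tested genes of each list, with an open symbol for each capture and a red bar at the median of the fitted differences. All 4 captures lie above 0 for the contractile list (bar at 0.97) and below 0 for the matrix fibroblast markers (bar at -0.89), while those of the pericyte list range from -1.16 to 1.35.

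Receptors and channels through which vessels respond to hormones and nerves were mostly low. Only 13 of 39 were tested, with a median of 0.01. In all 4 captures 1 was higher and 2 were lower, beside 5.44% and 8.13% of all genes. Trpc6, a cation channel, was higher in each capture by 1.41 on average (SE 0.75), with medians of 49.16 and 7.17 FPKM. Ednrb, an endothelin receptor, differed by -1.59 (SE 0.75) and Adra2a, an adrenergic receptor, differed by -1.41 (SE 0.87). Kcnmb1, a subunit of the calcium-activated potassium channel of smooth muscle, differed by 0.99 (SE 0.68).

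Regulators of the contractile program had no common direction. Of 35 genes around SRF, Notch and mesenchymal identity, 17 were tested with a median of -0.23, and 0 reached an unadjusted p below 0.05 in either direction. Tgfb1i1, a coactivator also known as Hic-5, was lower in all 4 captures, with a difference of -1.12 (SE 0.73). Zeb2, a transcriptional repressor, differed by 1.15 (SE 0.67), Fhl2, a cofactor of SRF, by 1.13 (SE 0.83) and Prrx1, a homeobox gene of fibroblasts, by -1.01 (SE 0.76).

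Fibrillar matrix genes lay mostly lower in Acta2-high cells, none of them past an unadjusted p of 0.05. Among fibrillar matrix genes 26 of 27 were tested, with a median of -0.29 and 19 negative and 7 positive values. The captures did not share a direction, with medians of -0.05, -0.48, 0.53 and -0.98. Tnc, or tenascin C, differed by -1.23 (SE 0.74), Eln, or elastin, by -0.92 (SE 0.57), Fn1, or fibronectin, by -0.87 (SE 0.64) and Lox, which crosslinks collagen, by -0.79 (SE 0.59). Col1a1 differed by -0.34 (SE 0.48). Among 16 of 19 basement membrane genes the median was 0.12. Nid1, or nidogen, differed by 1.21 (SE 0.81), Lamb2 by 1.07 (SE 0.73) with a positive sign in all 4 captures, Lama4 by -1.49 (SE 0.82) and Agrn, or agrin, by -1.32 (SE 0.92).

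Markers of matrix fibroblasts lay lower in Acta2-high cells as a group. The 9 of 18 that were tested had a median of -0.89, negative in each capture (-1.33, -0.83, -0.34 and -1.11). Of these 9, 5 were lower in all 4 captures, beside 8.13% of all genes, and 3 were lower at an unadjusted p below 0.05, beside 2.79%. The 3 genes with an unadjusted p below 0.05 were Dpt, or dermatopontin, at -1.92 (SE 0.73), Crabp1, a retinoic acid binding protein of upper dermal fibroblasts, at -1.57 (SE 0.63) and Fbln2, or fibulin 2, at -2.20 (SE 0.96). Igf1 differed by -0.89 (SE 0.71). With the Acta2 limit at 300 FPKM the sign turned for Crabp1 (0.020), Fbln2 (0.60) and Igf1 (0.13), and among cells with Col1a1 below 1000 FPKM it turned for Fbln2 (0.27). The summed level of the 18 markers per cell ranged from 1.99 to 7936 FPKM, with a median of 254, in Acta2-high cells and from 14.6 to 18125 FPKM, with a median of 695, in Acta2-low cells. The capture means differed by -1.26 ± 2.09 on the log2 scale (SD over 4 captures), which an exact sign-flip permutation test did not separate from 0 (two-sided p 0.375, smallest reachable 0.125). PWD12 capture 3 went the other way (1.10), and the difference was -0.36 without PWD12 capture 2 and -2.05 without PWD12 capture 3. Col1a1 reached 1000 FPKM in 5 of 27 Acta2-high and 10 of 23 Acta2-low cells. Without the cells past that limit, 2 captures with 18 and 8 cells were left, and the contractile median was 1.02 while 0 genes passed.

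Of the endothelial markers, Esam stood apart. Esam, an adhesion molecule of endothelial and mural cells, was detected in 23 of 27 Acta2-high and 12 of 23 Acta2-low cells and differed by 2.53 (SE 0.87), with 3.30, 1.34, 0.75 and 4.74 by capture. Of the other tested markers, Vwf differed by 0.42 (SE 0.57), Flt1 by 0.12 (SE 0.75) and Plvap by -0.17 (SE 0.75), and the median of the 4 was 0.27. The summed level of the 14 markers had medians of 212 and 33.3 FPKM, in ranges of 6.76 to 1810 and 0.33 to 1522. Its capture means differed by 2.04 ± 1.53 (exact p 0.25). Cdh5 and Cldn5 were at 0 in all of these cells, Kdr was above 0 in 0 of 27 and 1 of 23, Emcn in 0 and 4 (0 of 27 allows up to 11.1%), and Pecam1 in 4 and 13. None of the 14 myeloid markers was high enough to be tested, and their summed median was 0 FPKM on both sides (range 0 to 749 and 0 to 269, difference -0.12 ± 1.96, exact p 1). The Schwann and skeletal muscle list had 1 tested gene of 11, Des, which smooth muscle also makes. Its sum was higher in all 4 captures, by 1.81 ± 1.56 (exact p 0.125), with medians of 36.8 FPKM (0.36 to 649) and 1.99 FPKM (0 to 680). The part of other cell types in the differences was not tested beyond these values.

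Lists of cell state were tested as well. Among 15 immediate early and stress genes the median was -0.24, and Fos differed by -1.74 (SE 0.59, unadjusted p 0.0139), from medians of 744.3 and 925.29 FPKM. Its median was higher in Acta2-high cells of PWD12 capture 3 (1513.93 against 1181.25 FPKM), and its difference was 0.11 from the log2 of the mean FPKM. Hspa1a, a heat shock protein, differed by -1.80 (SE 0.93), Atf3 by 1.10 (SE 0.74) and Jun by -0.92 (SE 0.74). Among 11 of 16 glycolysis and hypoxia genes the median was -0.06, with members on both sides. Eno1, or enolase, differed by 2.83 (SE 0.79, unadjusted p 0.00455) and Gapdh by 1.43 (SE 0.52), each positive in all 4 captures, whereas Pgam1 at -1.57 (SE 0.74) and Bnip3 at -1.27 (SE 0.67) were negative in all 4. Of the windows of Gapdh, 25.1% occur in other genes, and 25.3% of those of Eno1 occur in Eno1b. Of 16 cell cycle genes 6 were tested, with a median of -0.08, and Mcm6 (0.88, SE 0.71), Cdk1 (-0.45, SE 0.72), Tyms (0.37, SE 0.91) and Ccna2 (-0.29, SE 0.64) had no shared sign over captures. Inflammatory mediators had a median of -0.44 over 8 of 19, with Nfkbia at -1.08 (SE 0.72), Ccl7 at -0.95 (SE 0.65) and Ccl11 at 0.61 (SE 0.93) beside Steap4.

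Over all genes, 12 in each direction were named for the smallest p with one sign in all 4 captures. Of the 12 that were higher, 6 were the actins and contractile genes Actg1, Actb, Tagln, Myl9, Actg2 and Tpm1 already described. S100a11, a calcium-binding protein, was higher by 1.09 (SE 0.26), with medians of 3279.54 and 2130.72 FPKM, and Nrep, a regulator of matrix and migration, by 2.11 (SE 0.55), with 740.47 and 180.82 FPKM. Ghitm, a mitochondrial inner membrane protein, differed by 3.25 (SE 0.83), with 21 of 27 against 8 of 23 cells above 0. Stx4a, or syntaxin 4, differed by 3.35 (SE 0.81), Slc25a17, a peroxisomal carrier, by 3.01 (SE 0.79) and Ino80c by 2.16 (SE 0.54), the last in 9 and 2 cells.

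Of 12 genes that were lower, the leading pair, Gm24303 at -2.72 (SE 0.49) and Gm23681 at -2.17 (SE 0.50), are predicted short RNA genes that share 100% of their windows with 605 and 622 other genes, so their values are uncertain. Abl1, a tyrosine kinase, differed by -2.17 (SE 0.61), Smndc1, a splicing factor, by -2.21 (SE 0.62), Nenf, or neudesin, by -2.45 (SE 0.70) and Foxj3 by -1.84 (SE 0.54). Cd1d1, which presents lipid antigens, differed by -1.94 (SE 0.57), with 3 of 27 against 11 of 23 cells above 0. The others were the pseudogene Llph-ps2 (-2.56, SE 0.75), Ldb2 (-2.15, SE 0.68), Mvb12a (-1.92, SE 0.61), Sec11c (-1.74, SE 0.54) and Igsf3 (-1.67, SE 0.53). Igsf3 was found in 9 Acta2-high and 20 Acta2-low cells. None of these genes passed, with limma adjusted p of 0.894 or, for Gm24303, 0.677.

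The same Acta2 limit was applied to matrix fibroblasts to set the contractile difference in mural cells beside that in another kind of cell. Of the 7 captures, 2 had at least 3 cells of each kind and side, PWD12 capture 1 with 8 high and 24 low and PWD12 capture 2 with 11 and 17. The split itself was wider in matrix fibroblasts, where Acta2 differed by 6.72 and 7.30 on the log2 scale between the sides, against 2.66 and 3.03 in mural cells, so that the sizes below belong to unequal contrasts. The median difference of the contractile genes in these captures was 0.56 and 0.70 in mural cells and 0.50 and 1.30 in matrix fibroblasts. Tagln differed by 2.99 and 5.18 in mural cells and by 3.86 and 4.98 in matrix fibroblasts, so that neither kind was ahead in both captures. Myl9 differed by 0.54 and 3.88 against 2.48 and 3.67, and Tpm1 by 0.55 and 2.49 against 1.21 and 1.66. Actg2 was the least alike, with 6.14 and 4.97 in mural cells against -0.10 and 4.30.

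Tested as a difference of differences over these 2 captures, 1 of 7034 genes passed (0.0142%), and 142 were higher and 209 lower in mural cells at an unadjusted p below 0.05. The gene was Gm28437, at -0.73 (limma adjusted p 0.0172), a copy of mitochondrial sequence whose windows all occur in mt-Co3, a gene of the rule. The genes next in order of p did not pass. They were Fstl1 (0.68, SE 0.18), Sparc (0.70, SE 0.19), Cox6a1 (3.05, SE 0.83), Abhd11 (5.37, SE 1.51) and Zfp512b (6.02, SE 1.72) on the positive side, and Rtp4 (-7.34, SE 1.60), Gm44310 (-6.55, SE 1.69), Emc8 (-5.41, SE 1.44) and Kdelr1 (-5.83, SE 1.58) on the negative side. Over the 20 contractile genes the median of the difference was 0.02, beside -0.21 over all genes. With 2 captures the interval of each gene is wide, and a missed threshold does not show that the kinds respond alike.

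**Figure D5:**
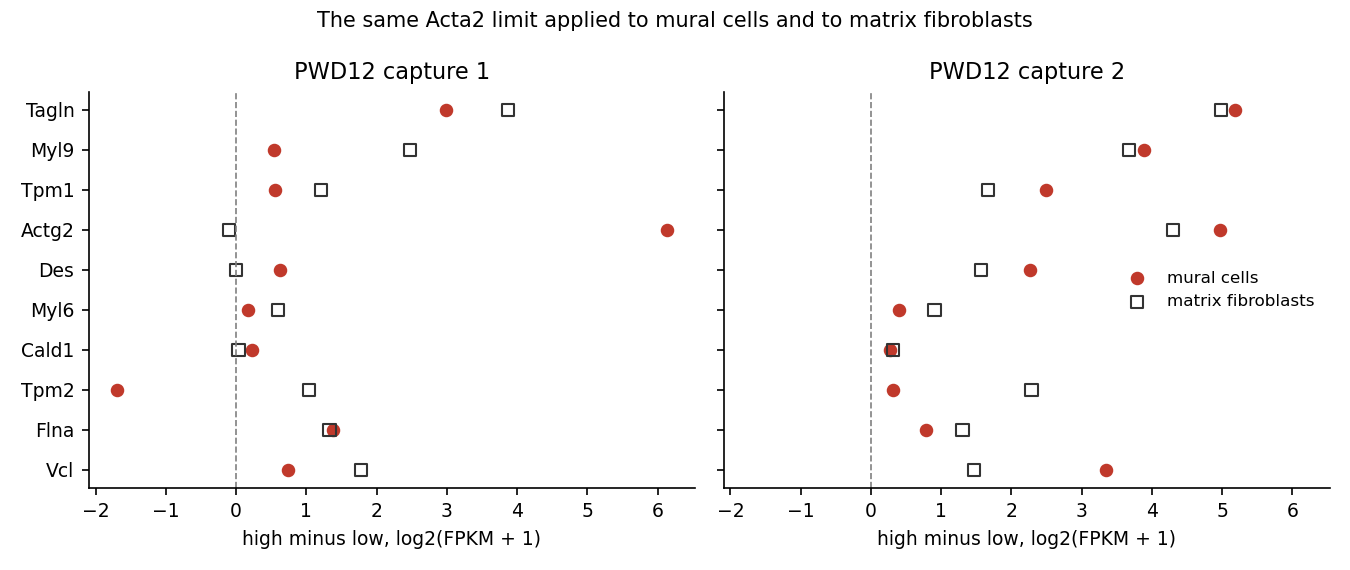
Difference between Acta2-high and Acta2-low cells in log2(FPKM + 1) for 10 contractile genes in PWD12 captures 1 and 2, with filled circles for mural cells and open squares for matrix fibroblasts. Tagln differs strongly in both kinds of cell, and Actg2 of capture 1 (6.14 against -0.10) is the widest gap between them.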

How the data were processed

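Full-length RNA of viable tdTomato-high single cells was sequenced as paired ends after capture on a C1 chip, with 7 captures and 367 cells. The authors aligned reads with Bowtie to mm10 and estimated expression with RSEM 1.2.31 with GENCODE release 13, and deposited FPKM for 50600 genes and no counts. Gene positions and types came from GENCODE release 21 on GRCm38. Since FPKM allows no count test, mean log2(FPKM + 1) over cells was taken per capture and side, genes with a mean of at least 1 were kept, and limma 3.58.1 in R 4.3.3 was fitted with a variance trend, the capture as a block and Benjamini-Hochberg adjustment. The 37 mitochondrially encoded genes and the 3 genes that chose the cells stayed out. The capture was the replicate. The description of the third PWD12 sample's cells names the matrix of the second, so captures were taken from the sample number in the titles, and each matrix was 1 capture. Depth per cell was estimated from FPKM steps in single-transcript genes of at least 1000 bases with an assumed fragment of 300 bases, and the intervals on shares of cells are Clopper-Pearson. Shared sequence was the share of 50-base windows of a gene's transcripts found in another gene.

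The members, the 14 gene lists and the tests were chosen with earlier results of these data known. Named were the 12 genes in each direction with the smallest p and the same sign in all captures, the 4 with the smallest p in each list or every member past the threshold, and the 5 in each direction against matrix fibroblasts. Other genes, and the count of members at an unadjusted p below 0.05, were added after values were seen. Quality measures and summed markers were compared by exact sign flips of the capture differences (two-sided, Python 3.11.15 with scipy 1.17.1). The alternatives were other limits for Acta2, Rgs5, Pdgfra, gene number and Col1a1, other pseudocounts, filters, summaries and scalings, no block, no trend, a covariate for gene number and each capture left out. Protein-coding genes only, Col1a1 below 1000 FPKM and the cell with Y-linked RNA and Xist left out were added after seeing the data. The fit was tested on simulated data. The droplet-based cells were not analysed here.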

Additional observations from a re-analysis of the deposited data

Results flagged for a closer look

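Among the 4 capture means of a named gene on a side, a value was singled out where its gap to the next, as a share of the range, was above the critical value of Dixon's test. Chance does this in about 1 in 20 groups. With 68 named genes in the comparison of the sides, each with a group per side, several such values would arise by chance. Means below are of log2(FPKM + 1).

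On the Acta2-low side, Fn1 stood apart in PWD15 capture 1 at 4.32, Tnc in PWD12 capture 2 at 5.64, Fos in PWD12 capture 1 at 6.82 and Kcnmb1 in PWD12 capture 2 at 2.64. Ino80c in PWD15 capture 1 at 0.16 and Igf1 in PWD12 capture 2 at 0.088 did so near the floor of the scale. On the Acta2-high side, Lamb2 stood apart in PWD12 capture 1 at 4.80, Vwf in the same capture at 3.24, Bnip3 in PWD12 capture 2 at 3.84, Sec11c in PWD12 capture 3 at 1.11 and Tyms in PWD15 capture 1 at 0.81. None of the contractile genes named above was among them.

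The Acta2 difference of Gm28437 was lower in mural cells than in matrix fibroblasts by 0.73 on the log2 scale (-0.73, limma adjusted p 0.0172 over 2 captures). All its windows occur in mt-Co3, so its reads cannot be told apart from those of a mitochondrial gene, and the mitochondrial share was used to choose the cells. With a pseudocount of 10, 0 genes passed.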

How the results depend on the processing

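Under all 25 alternatives 0 genes passed the adjusted p of 0.05 in limma between Acta2-high and Acta2-low mural cells, and the smallest adjusted p was 0.0698, for Actg1 with at least 4 cells a side. The cells compared were the same 27 and 23 with Rgs5 from 250 FPKM and with at least 2 cells a side. Both sides of a capture come from the same chip, which is why the capture was the block, and the fit with no replicate block also gave 0 calls, with 91 genes higher and 164 lower at an unadjusted p below 0.05. That split was 213 and 60 with Acta2 from 300 FPKM. Of 1591 values of 68 named genes under the alternatives, 1560 kept their direction. Part of that count was fixed in advance. Dropping the block, the trend or the filter leaves each difference as it was. Genes named for one sign in all captures cannot turn when a capture is left out.

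The contractile median of 0.97 was positive under every alternative. Part of this was fixed in advance as well. Dropping the block or the trend, Rgs5 from 250 FPKM and at least 2 cells a side left the differences as they were. The median was also positive in each capture before any was left out. It was 0.71 with at least 4000 genes, 1.33 and 0.61 with pseudocounts of 0.1 and 10, 0.57 with no filter, 0.68 with the log2 of the mean and 0.71 to 1.13 with a capture left out, lowest without PWD12 capture 2. The cause of these shifts was not tested.

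With Acta2 split at 300 FPKM, which left 3 captures, the differences of Nenf (0.46), Steap4 (0.39), Prrx1 (0.022), Tnc (0.11), Lox (0.26), Agrn (0.61), Crabp1 (0.020), Fbln2 (0.60), Igf1 (0.13), Ccl7 (0.45), Trpc6 (-0.30) and Zeb2 (-0.18) changed sign. So did Flt1 (-0.043) with a pseudocount of 10; Flt1 (-0.34), Plvap (0.73), Fos (0.11) and Nfkbia (0.44) with the log2 of the mean; Gm23681 (0.011) and Tyms (-0.086) with the median over cells; Flt1 (-0.66) and Ccl7 (0.034) with at least 4 cells a side; Plvap (0.61), Cdk1 (0.0069) and Ccna2 (0.31) with gene number as a covariate; and Lama4 (0.37) and Fbln2 (0.27) with Col1a1 below 1000 FPKM. With a capture left out, Flt1 ran from -0.62 to 0.54, Tyms from -0.33 to 1.18, Ccna2 from -0.45 to 0.29 and Ccl11 from -0.26 to 1.51. The difference in genes per cell was 51.6 with medians over cells and -568 to 6.26 with a capture left out, and that of summed myeloid markers was -0.63 to 0.83. Against matrix fibroblasts, 0 genes passed with a pseudocount of 10 and 2 with the log2 of the mean, the cells were the same with Col1a1 from 300 FPKM, and leaving out a capture left no residual degrees of freedom.

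Depth is an estimate, FPKM holds no counts, and a value of 0 may be a failed estimate. With 4 captures, the smallest exact p is 0.125.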

Other observations

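The 9 mural cells of PWD21 capture 1 entered no comparison. Their Acta2 ranged from 0 to 458.95 FPKM and their Tagln from 0 to 1159.35 FPKM, the highest of both in the same cell. Actg2 was above 0 in 1 of them, at 72.66 FPKM. In 4 of the 9, Col1a1 lay between 11791.89 and 15438.71 FPKM with 6780 to 9300 genes above 0, and Rgs5 was 1499.46 to 2433.29 FPKM. The other 5 had Col1a1 between 27.93 and 430.14 FPKM and 2151 to 5835 genes. Kcnj8 reached 4529.52 FPKM in a cell that was listed at 0 for Tagln, Myl9 and Tpm1 and held 256.45 FPKM of Acta2. The single mural cell of PWD15 capture 2 was listed at 0 for Acta2 and Tagln but held 1501.39 FPKM of Myl9.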
